A study of Mus musculus with 6 samples.

Results

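The macrophage lysosome and cathepsin genes are 10 genes for proteins that macrophages use to break down what they engulf: Lyz2, Ctss, Cd68, Lgmn, Ctsb, Ctsc, Ctsh, Ctsz, Lamp1, and Grn. They were chosen by gene name from the 56923 genes listed, and all 10 were among the 17212 genes that passed a filter on low counts and were tested. Expression was measured by mRNA-Seq in hearts of 3 WT mice (Lztr1 +/+) and 3 mutant mice aged 12 weeks, each sequenced as a single library. The labels give the genotypes as wild-type and mutant and the tissue as heart. That the sequenced mutants were heterozygous Lztr1 R409C/+ mice comes from the study's account of its mRNA-Seq, not from the labels. Its methods describe this line as a knock-in made with CRISPR/Cas9 and backcrossed to C57BL/6J, give male mice as those used to assess the mutation, and state that left ventricles (LVs) were taken after perfusion with phosphate-buffered saline. The allele is a germline change carried by every cell, macrophages and cardiomyocytes included, and whole LV tissue was measured, so the cell in which a transcript lay is not known. The comparison asks whether these genes differ in level between Lztr1 R409C/+ LVs, called mutant from here on, and WT LVs.

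Lysosomes are acidic compartments in which hydrolases digest proteins, lipids, sugars, and nucleic acids. Every cell has them, and macrophages have many, together with proteins that few other cells make. Cathepsins are lysosomal proteases: cathepsins B, C, H, S, and Z are cysteine proteases related to papain, whereas cathepsin D is an aspartic protease. LZTR1 is a substrate adaptor of a CUL3 ubiquitin ligase that targets RAS family proteins.

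The 5 cathepsin members belong to a single protease family, and the part of their coding sequence around the catalytic cysteine is shown because it is what they share. Each line gives 42 bases of the canonical transcript (GENCODE vM39, GRCm39), 5′ to 3′, with the span in the genome, which includes an intron in all but Ctsz. The 4 codons in capitals end with that of the catalytic cysteine.
Ctsb, chr14:63373142-63373867, plus strand: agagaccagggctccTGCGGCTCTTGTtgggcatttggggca
Ctsc, chr7:87951499-87957252, plus strand: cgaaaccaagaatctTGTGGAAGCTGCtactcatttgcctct
Ctsh, chr9:89946302-89946592, plus strand: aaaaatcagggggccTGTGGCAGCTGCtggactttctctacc
Ctss, chr3:95450465-95452676, plus strand: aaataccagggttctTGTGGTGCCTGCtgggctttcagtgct
Ctsz, chr2:174279974-174280015, minus strand: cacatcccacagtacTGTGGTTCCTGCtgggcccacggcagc
The codons were found by a search of the translated reading frame. Ctss was found with a looser pattern, in which the codon before the last was left free, which was chosen after the stricter pattern had no match there. Neither pattern had a match in Lgmn, a cysteine protease of another family.

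Lyz2 has a neighbor, Lyz1, with 95% identity over the 444 bases of coding sequence, 22 of which differ. The first 90 coding bases of both genes are shown because reads from one can be counted for the other, with the 7 bases that differ in capitals (GRCm39).
Lyz2, chr10:117118058-117118147, minus strand: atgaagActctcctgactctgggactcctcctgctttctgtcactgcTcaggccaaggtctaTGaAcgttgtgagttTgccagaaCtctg
Lyz1, chr10:117128654-117128743, minus strand: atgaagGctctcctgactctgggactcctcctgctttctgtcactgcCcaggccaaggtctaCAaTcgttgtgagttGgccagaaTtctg
Of the 1220 windows of 50 bases in the canonical Lyz1 transcript, 195 (16%) also occurred in that of Lyz2, so a part of the reads of this pair cannot be assigned by sequence.

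In mutant LVs, 6 of the 10 genes lay above WT in every mouse: the lysozyme gene Lyz2, the macrophage membrane protein gene Cd68, and the cathepsin genes Ctss, Ctsc, Ctsh, and Ctsz, by 1.46-fold to 2.28-fold. Over all genes tested, 8.3% were higher without overlap. The cathepsin gene Ctsb, the protease gene Lgmn, the lysosomal membrane gene Lamp1, and the progranulin gene Grn overlapped between the genotypes. None of the 10 passed the threshold after adjustment over all genes tested, by the quasi-likelihood test of edgeR, whereas 6 were higher at an unadjusted p under 0.05, as were 5.77% of all genes tested. Of 17 macrophage markers, 15 were higher at that p and 2 after adjustment (edgeR).

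Lyz2 encodes lysozyme M, which digests bacterial cell walls and is a common marker of macrophages and other myeloid cells. Lyz2 (ENSMUSG00000069516.9, GRCm39 chromosome 10, 117111557 to 117118346, minus strand) was 88.3, 93.8, and 117.4 CPM (counts scaled to a common library size with TMM, which corrects for differences in library composition) in WT replicates 1, 2, and 3 and 248.5, 143.0, and 145.1 CPM in mutant replicates 1, 2, and 3. All mutant mice lay above all WT mice, and mutant replicate 1 stood well above the other two. The mean was 99.8 ± 15.5 CPM in WT and 178.9 ± 60.3 CPM in mutant mice (SD, n = 3 in each group), and the fitted difference was 1.79-fold (95% interval, 1.28 to 2.51). On the log2 scale this is 0.84 with a standard error of 0.22, and its adjusted p of 0.275 (quasi-likelihood test of edgeR, two-sided, adjusted by Benjamini-Hochberg over all genes tested) did not pass the threshold of 0.05. Without mutant replicate 1, the log2 difference was 0.52 (adjusted p = 0.502, edgeR). Across the 16 alternative analyses, the adjusted p ranged from 0.0379, with DESeq2, to 0.976.

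Lyz1 was far lower than Lyz2: its counts were 40, 29, and 55 in the WT mice and 148, 162, and 104 in the mutant mice. Its groups did not overlap either, and its log2 difference of 1.95 (standard error 0.36) was larger than that of Lyz2 but did not pass the threshold (edgeR, adjusted p = 0.142, range 0.000845 to 0.435 over the alternatives). For every 100 Lyz2 counts, there were 0.686, 0.480, and 0.495 Lyz1 counts in WT and 1.07, 1.58, and 0.989 in mutant mice.

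Cathepsin S is a protease that stays active at neutral pH and trims the invariant chain of MHC class II molecules in antigen-presenting cells. Ctss (ENSMUSG00000038642.11, chromosome 3, 95433963 to 95463717, plus strand) was 9.59, 8.20, and 13.5 CPM in WT and 20.3, 18.3, and 18.3 CPM in mutant mice. The mutant mice lay close together and above every WT mouse. The mean was 10.4 ± 2.74 CPM in WT and 18.9 ± 1.16 CPM in mutant mice (SD, n = 3 in each group), a fitted difference of 1.81-fold (95% interval, 1.34 to 2.45). The log2 difference was 0.86 (edgeR, standard error 0.20, adjusted p = 0.215), and the adjusted p was 0.0203 with DESeq2's Wald test and 0.0247 with edgeR's exact test. Over all 16 alternatives it ran from 0.0203 to 0.976.

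Cd68 encodes macrosialin, a heavily glycosylated membrane protein of macrophage endosomes and lysosomes. Cd68 (ENSMUSG00000018774.14, chromosome 11, 69555037 to 69557067, minus strand) was 3.92, 3.88, and 1.16 CPM in WT and 7.80, 5.82, and 6.71 CPM in mutant mice. It had the largest difference among the members with all 6 mice, and WT replicate 3, with 110 counts against 259 and 250 in the other WT mice, stood apart on the low side. The fitted difference was 2.28-fold (95% interval, 1.29 to 4.02), and its log2 value was 1.19 (edgeR, standard error 0.38, adjusted p = 0.405). Without WT replicate 3, the log2 difference was 0.79, below 1.09 for Ctss and 0.97 for Lyz2.

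Cathepsin C, also called dipeptidyl peptidase 1, removes dipeptides from the ends of proteins and activates the serine proteases of granules. Ctsc (ENSMUSG00000030560.18, chromosome 7, 87927092 to 87960096, plus strand) was 29.1, 33.4, and 25.3 CPM in WT and 43.6, 43.8, and 40.4 CPM in mutant mice. The groups were apart, with a fitted difference of 1.46-fold (95% interval, 1.15 to 1.84). The log2 difference was 0.54 (edgeR, standard error 0.16, adjusted p = 0.326).

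Cathepsin H is an aminopeptidase. Ctsh (ENSMUSG00000032359.15, chromosome 9, 89936205 to 89958148, plus strand) was 18.3, 13.7, and 17.5 CPM in WT and 27.0, 19.9, and 28.9 CPM in mutant mice. The lowest mutant mouse, replicate 2, was little above the highest WT mouse. The fitted difference was 1.53-fold (95% interval, 1.15 to 2.04), with a log2 value of 0.61 (edgeR, standard error 0.19, adjusted p = 0.377).

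Cathepsin Z, also called cathepsin X, is a carboxypeptidase found in many immune cells. Ctsz (ENSMUSG00000016256.11, chromosome 2, 174267304 to 174280832, minus strand) was 8.32, 9.99, and 11.3 CPM in WT and 12.2, 13.6, and 19.6 CPM in mutant mice. The gap between the highest WT and the lowest mutant mouse was small, and mutant replicate 3 was well above the rest. The fitted difference was 1.54-fold (95% interval, 1.12 to 2.11), and the log2 difference of 0.62 (edgeR, standard error 0.21, adjusted p = 0.455) was 0.39 without mutant replicate 3. The exons of Ctsz and Nelfcd, which lies on the opposite strand, share 1084 bases. Nelfcd, named after its values were seen, had a log2 difference of -0.23 (edgeR, adjusted p = 0.769) and 7844 counts over the 6 mice, against 5334 for Ctsz. Whether the counting used the strand is not given in the sources used here, so reads of Ctsz and Nelfcd from the shared bases cannot be told apart.

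The other 4 members overlapped between the genotypes, and their fitted differences were within 4% of no change. Cathepsin B is an abundant lysosomal protease of most cell types, cardiomyocytes included. Ctsb (ENSMUSG00000021939.9, chromosome 14, 63358384 to 63383372, plus strand) was 350.3, 376.5, and 343.3 CPM in WT and 313.7, 403.5, and 367.5 CPM in mutant mice. The mutant mice held both the lowest and the highest value. The fitted difference was 1.01-fold (95% interval, 0.796 to 1.29), and its log2 value was 0.02 (edgeR, standard error 0.16, adjusted p = 0.982).

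LAMP1 is a main protein of the lysosomal membrane, which it lines on the inner side. Lamp1 (ENSMUSG00000031447.8, chromosome 8, 13209121 to 13227360, plus strand) was 379.4, 424.3, and 278.9 CPM in WT and 349.7, 407.3, and 316.6 CPM in mutant mice. All mutant values lay within the range of the WT mice. The ratio of the genotypes was 0.992 (95% interval, 0.746 to 1.32).

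Grn encodes progranulin, a secreted protein that is also delivered to lysosomes and cut there into granulins. Grn (ENSMUSG00000034708.13, chromosome 11, 102321141 to 102327874, plus strand) was 64.2, 73.2, and 79.6 CPM in WT and 51.3, 83.2, and 74.4 CPM in mutant mice. Mutant replicate 1 was the lowest and replicate 2 the highest of all 6 mice. Their ratio was 0.963 (95% interval, 0.723 to 1.28).

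Legumain, or asparaginyl endopeptidase, cuts after asparagine and processes other lysosomal proteases. Lgmn (ENSMUSG00000021190.15, chromosome 12, 102359122 to 102414682, minus strand) was 49.7, 45.7, and 58.7 CPM in WT and 40.0, 56.9, and 52.3 CPM in mutant mice. The groups overlapped, with the lowest value in mutant replicate 1 and the highest in WT replicate 3. Their ratio was 0.967 (95% interval, 0.744 to 1.26). Exons of Ctsb, Lamp1, and Grn share 1184, 2564, and 1273 bases with Fdft1, Grtp1, and Fam171a2 on the opposite strand, which had 13320, 723, and 1732 counts over the 6 mice against 152767, 150237, and 30673 for the members. Exons of Lyz2 share 534 bases with Gm67237, a long noncoding RNA gene on the opposite strand that has no count value here. Lamp1 and Grn share 10 and 12 bases with other such genes, Gm64292 and Gm72073. The adjusted p was 0.990 for Lamp1, 0.958 for Grn, and 0.960 for Lgmn with edgeR, and the intervals of Ctsb, Lamp1, Grn, and Lgmn together reach from 0.723-fold to 1.32-fold.

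**Figure D1:**
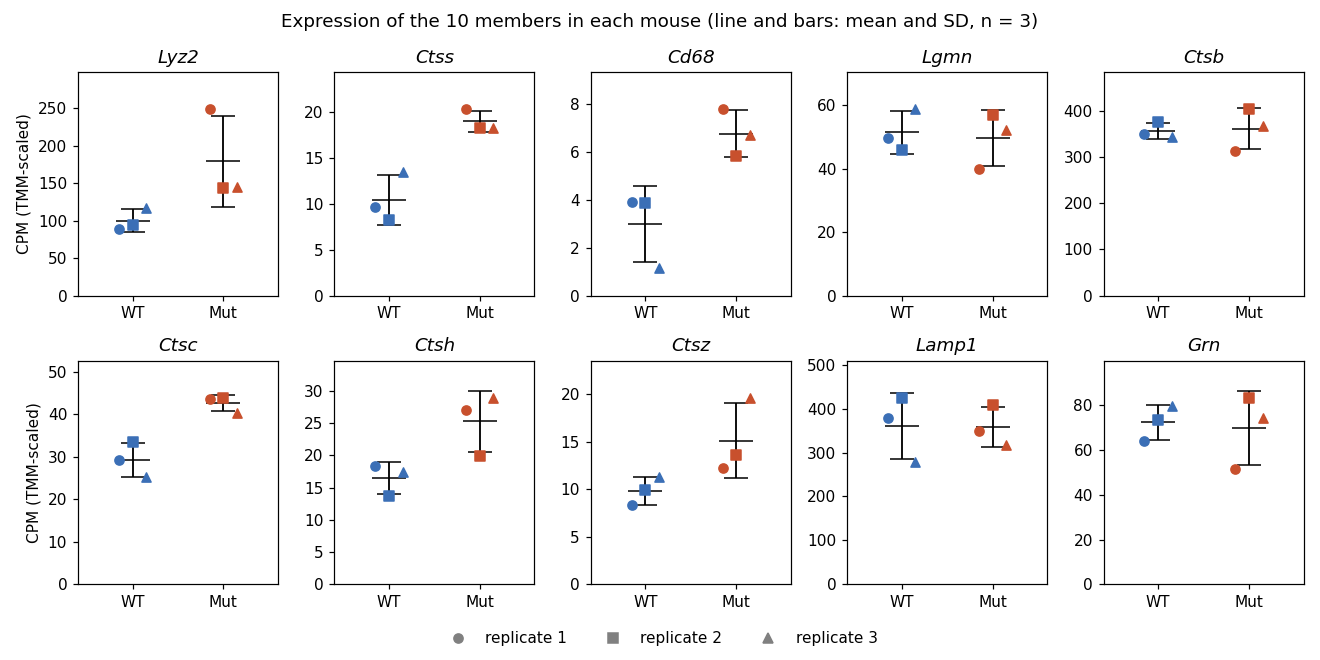
CPM (TMM-scaled, linear axes that start at 0) of each of the 10 members in WT (blue) and mutant mice (Mut, red), with 1 symbol shape per replicate number and the mean and SD (n = 3) in black. Lyz2, Ctss, Cd68, Ctsc, Ctsh, and Ctsz have all mutant mice above all WT mice, and the groups overlap for Lgmn, Ctsb, Lamp1, and Grn.

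Among the 10 members, 0 passed the adjusted threshold in edgeR's quasi-likelihood test, as against 7 (0.0407%) of all genes tested. The same test gave 6 members that were higher at an unadjusted p under 0.05 and 0 that were lower, where 5.77% of all genes tested were higher and 2.86% lower. These 6 were Lyz2, Ctss, Cd68, Ctsc, Ctsh, and Ctsz, and their values did not overlap between the genotypes. Over all genes tested, 8.3% did not overlap and were higher in mutant mice, and 7.23% did not overlap and were lower. With 3 mice in each group, the two-sided exact permutation test gave each of the 6 members p = 0.1, the smallest value this design allows. DESeq2's Wald test called 2 members, Lyz2 and Ctss, where it called 0.871% of all genes in either direction, and edgeR's exact test called 1, Ctss, where it called 0.813%. The median log2 difference was 0.58 over the 10 members and 0.012 over all genes tested.

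The values depend on how the libraries were scaled. With library size alone, without TMM, only Cd68 was at an unadjusted p under 0.05 (higher in 2.25% of all genes tested) and only Cd68 did not overlap (3.62%), and the median log2 difference over all genes tested moved from 0.012 to -0.14. The member median was then 0.43. The log2 differences of Lyz2, Ctss, Cd68, Ctsc, Ctsh, and Ctsz were positive in each of the 16 alternatives, whereas those of Lgmn, Ctsb, Lamp1, and Grn changed sign in some.

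**Figure D2:**
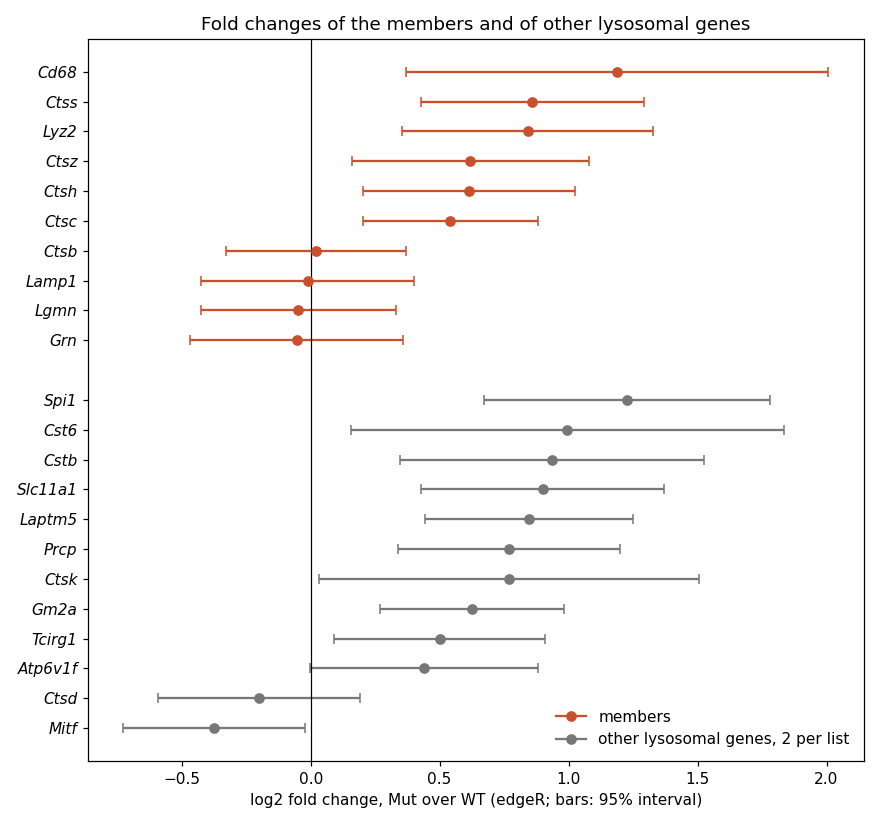
Log2 fold change of Mut (mutant) over WT mice from edgeR with 95% intervals, for the 10 members (red) and for the 2 genes with the smallest p in each of 6 lists of other lysosomal genes (grey). The intervals of 6 members, Cd68 (1.19) to Ctsc (0.54), lie above 0, and those of Ctsb, Lamp1, Lgmn, and Grn lie around 0.

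A comparison within each library does not use the scaling. For every 100 counts of Ctsb there were 25.2, 24.9, and 34.2 counts of Lyz2 in WT and 79.2, 35.4, and 39.5 in mutant mice. For Ctss these numbers were 2.74, 2.18, and 3.93 in WT and 6.47, 4.53, and 4.97 in mutant mice. Relative to Ctsb, the genotypes did not overlap for Lyz2, Ctss, Cd68, Ctsc, and Ctsz, and they overlapped for Ctsh, Lgmn, Lamp1, and Grn. On this scale, 6.55% of all genes tested did not overlap and were higher in mutant mice. In Ctsh, the ratio was 5.24, 3.63, and 5.09 in WT and 8.60, 4.94, and 7.86 in mutant mice, so that only mutant replicate 2 lay within the WT range.

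Levels of different genes were compared per length, as CPM per kilobase of exon (CPM/kb). The length was the union of all annotated exons of a gene, so these levels and the shares below depend on the annotation. In WT mice, the order of the mean levels was Lamp1 (69.2 CPM/kb), Ctsb (46.5), Lyz2 (30.0), Grn (18.6), Lgmn (6.20), Ctsc (4.68), Ctsh (3.30), Ctsz (2.66), Cd68 (2.18), and Ctss (1.97). The values of Ctsh, Ctsz, Cd68, and Ctss overlapped from each to the next, and those of the other neighbors in the order did not. The 6 members that were higher in mutant mice thus include Lyz2, at a high level, and the 5 members of lowest level. In mutant mice, Lyz2 was 53.8 CPM/kb, above Ctsb at 47.1 and below Lamp1 at 68.6, and its values overlapped those of both. Ctsc, at 6.81 CPM/kb, stood above Lgmn, whose values it overlapped.

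Cathepsin D, which is no member, was the most abundant cathepsin, at 253.4 ± 32.8 CPM/kb in WT and 220.4 ± 33.2 CPM/kb in mutant mice (SD, n = 3 in each group). Without division by length, the WT mean was 701.1 CPM for cathepsin D and 356.7 CPM for Ctsb. As a share of the summed CPM/kb of 11 cathepsins, cathepsin D went from a mean of 72.8% in WT to 68.7% in mutant mice with overlapping values, and Ctsb from 13.5% to 14.8%, also with overlap. The shares of Ctss (0.581% and 1.13%), Ctsc (1.34% and 2.16%), Ctsh (0.962% and 1.59%), and Ctsz (0.778% and 1.26%) did not overlap between WT and mutant mice, nor did that of Ctsk (0.191% and 0.348%), which is no member. Set against the same sum of 11 cathepsins, 12% of all genes tested were higher without overlap. Shares within 1 mouse sum to a fixed total, so they are not independent of each other.

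**Figure D3:**
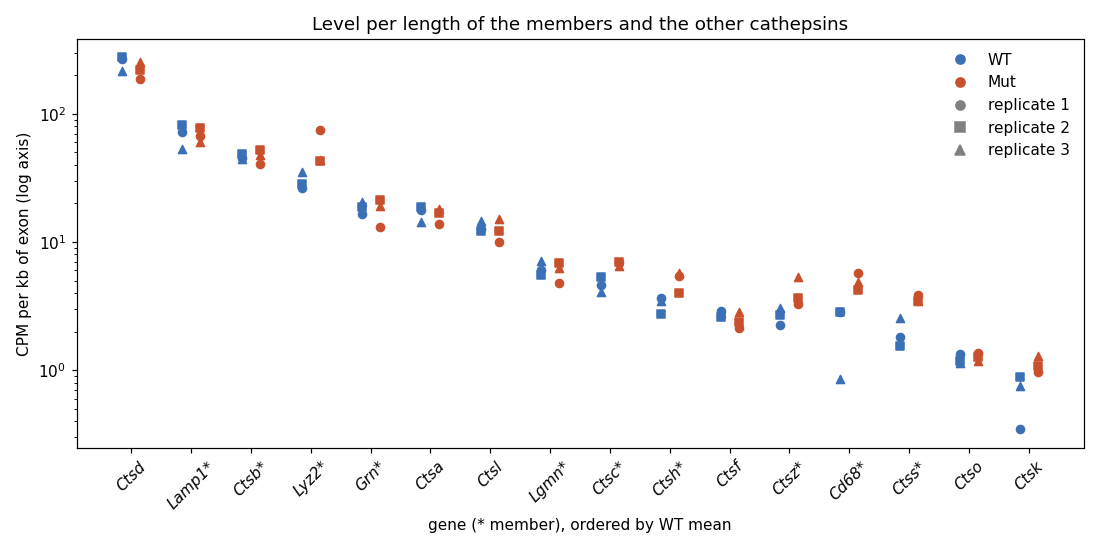
Level per exon length (CPM per kb, log axis) of the members (marked with *) and of the other cathepsins above 0.1 CPM per kb, ordered by the WT mean, in WT (blue) and mutant mice (Mut, red), with 1 symbol per mouse. Levels run from 253.4 CPM per kb for Ctsd to 0.655 for Ctsk in WT, and the members with separated groups lie mostly in the lower part of the order.

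The mice of a genotype did not order the members alike. Among the 6 members at an unadjusted p under 0.05, deviations from the genotype mean had a median correlation of -0.18. Of their 15 pairs, 9 were negative. In WT mice, replicate 3 had the highest Lyz2, Ctss, Ctsz, Lgmn, and Grn and the lowest Cd68, Ctsc, Ctsb, and Lamp1. In mutant mice, replicate 1 had the highest Lyz2, Ctss, and Cd68 and the lowest Ctsz, Lgmn, Ctsb, and Grn. These 2 libraries also had the extremes of the share of mitochondrially encoded counts, 13.8% in WT replicate 3 and 45.4% in mutant replicate 1 against 29.7% to 37.3% in the other 4, and the extremes of the TMM factor, 1.39 and 0.800. With both left out, an alternative added after the data were seen, the same 6 members were at an unadjusted p under 0.05 (edgeR; higher in 5.92% of all genes tested), with a log2 difference of 0.66 for Lyz2 and 1.04 for Ctss, and the median over the members was 0.52. With 2 mice left in each genotype, Lgmn (log2 difference of 0.19) and Grn (0.20) did not overlap either, but 21.2% of all genes tested were then higher without overlap, and neither gene was at an unadjusted p under 0.05.

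**Figure D4:**
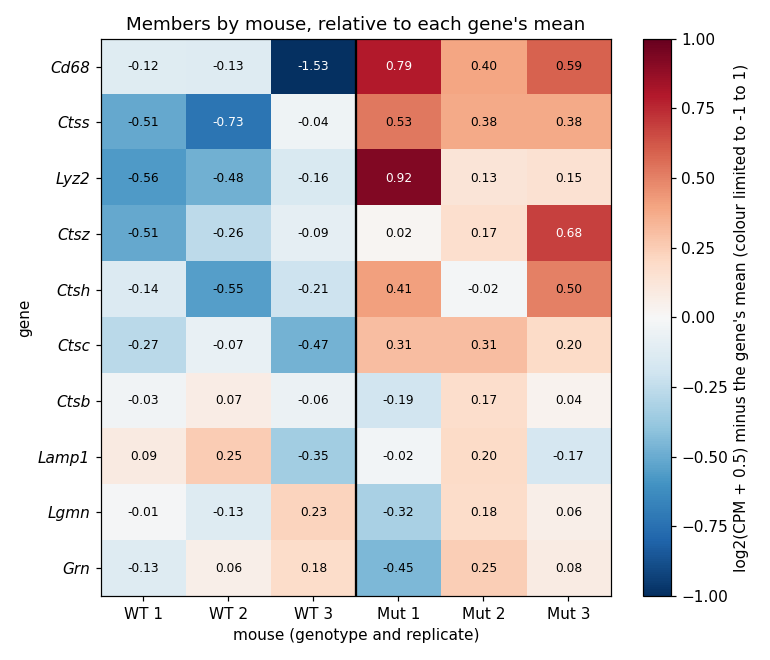
Log2(CPM + 0.5) of each member in each mouse after subtraction of the gene's mean over the 6 mice, with genes ordered by fold change (Mut, mutant). Values for Cd68 run from -1.53 in WT replicate 3 to 0.79 in mutant replicate 1, whereas those of Ctsb stay between -0.19 and 0.17.

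Total counts were between 66130887 and 72641124 per mouse, and 3 counts corresponded to between 0.0317 and 0.0541 CPM, which covers counting error only. The mutated gene Lztr1 was 24.2, 24.2, and 22.2 CPM in WT and 23.9, 27.9, and 25.3 CPM in mutant mice, with overlap. A point mutation need not change the RNA level, so Lztr1 does not check the labels. The cardiomyocyte markers summed to between 36866 and 40983 CPM in WT and 27627 and 39478 CPM in mutant mice, with a median log2 difference of -0.19 and 0 of 7 at an unadjusted p under 0.05 (edgeR). All 17 macrophage markers passed the filter, so transcripts of both cell types were present. At that p, 2 of 6 fibroblast markers and 1 of 5 endothelial markers were higher, none of them with library size only, and 2 of 6 markers of smooth muscle cells and pericytes were lower.

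The macrophage markers, genes such as Adgre1, Csf1r, and C1qa that are used to mark these cells, differed between the genotypes in the same direction as the 6 members. Whether each marker is made only by macrophages was not tested. All 17 markers had a higher fitted value in mutant mice, also with library size only. Of these, 15 were higher at an unadjusted p under 0.05 (5.77% of all genes tested) and without overlap between the genotypes (8.3%), whereas Mertk and Cd163 overlapped (log2 differences of 0.29 and 0.44), and C1qb and C1qc passed the adjusted threshold (edgeR, adjusted p = 0.0241 for each). Over the alternatives, the adjusted p ranged from 2.79e-07 to 0.447 for C1qb and from 4.53e-08 to 0.379 for C1qc. Both lost the call with library size only, with the replicate block, and when any 1 mouse was left out. DESeq2's Wald test called 9 of the 17 markers, and the replicate block 0. With library size only, Cx3cr1 alone was called, and 9 rather than 15 were at an unadjusted p under 0.05. The summed marker level was 178.3 to 192.3 CPM in WT and 318.5 to 324.1 CPM in mutant mice, and 0 were at 0 counts in all mice. In whole tissue, a larger number of macrophages and more RNA of a gene per macrophage cannot be told apart.

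Markers of other leukocytes had lower summed CPM. Their lists were shorter and the sums were not corrected for gene length, so they do not rank the cell types. Monocyte markers summed to between 19.2 and 21.9 CPM in WT and 22.5 and 28.9 CPM in mutant mice, with Chil3 at 0 in all, and 2 of the 4 tested were higher at an unadjusted p under 0.05 (edgeR). Of the 4, 1 had a lower fitted value (log2 difference of -0.72). With library size only, and without mutant replicate 1, 1 marker was lower at that p. DESeq2's Wald test and edgeR's exact test each called 1 monocyte marker, Ccr2, as higher. Neutrophil markers, which matter because neutrophils also express Lyz2 and Ctsc, summed to between 0.961 and 1.86 CPM in WT and 2.25 and 2.57 CPM in mutant mice, with Ly6g, Camp, Ngp, Elane, and Mpo at 0 in all mice, and 1 of the 3 tested was higher at that p. Dendritic cell markers summed to between 18.4 and 21.9 CPM in WT and 21.9 and 23.4 CPM in mutant mice. Of the 5 tested, 2 were higher at that p (5.77% of all genes tested) and 4 were higher without overlap (8.3%), with a median log2 difference of 1.26. Lymphocyte markers summed to between 1.54 and 2.64 CPM in WT and 3.58 and 4.28 CPM in mutant mice, and all 7 tested had a higher fitted value in mutant mice, 1 at that p and 3 without overlap, with a median of 1.01. Erythroid markers, a measure of remaining blood, were 578.8 to 1479 CPM in WT and 1042 to 2626 CPM in mutant mice, with 3 of 5 higher at that p, 0 without overlap, and a median of 0.97. Without 1 mouse, the numbers higher at that p were 1 to 2 monocyte, 0 to 2 dendritic cell, 0 to 2 lymphocyte, and 1 to 5 erythroid markers. The part of these cell types in the members' values was not tested.

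Each member was set against the mean log2 level of the 17 macrophage markers in the same mouse, which was 0.89 higher in mutant than in WT mice. Before the log, 0.5 CPM was added to the markers and nothing to the members. The addition narrows differences of genes at low level, and the median fitted log2 difference of the markers was 1.02. The differences given here therefore depend in part on it, those of Ctss and Cd68 included. Relative to the marker mean, Ctss differed by -0.0020 between the genotypes on the log2 scale (two-sided exact permutation test, p = 1.0). Lyz2 differed by -0.09 (exact p = 0.6) and Cd68 by 0.47 (exact p = 0.8), with overlap in all of these. These values moved with single mice. Cd68 was at -0.10 without WT replicate 3, and Ctss between -0.17 and 0.21 without 1 mouse. Lyz2 was at -0.32 without mutant replicate 1, where it did not overlap, nor did Ctss at 0.21 without WT replicate 3. These alternatives were added after the data were seen. Ctsh and Ctsz were lower by 0.28 and 0.29 in mutant mice, with overlap (exact p = 0.3 for each). Without 1 mouse, Ctsh ran from -0.42 to -0.15 and Ctsz from -0.50 to -0.13. The genotypes did not overlap for Ctsh without WT replicate 2 (-0.42) or for Ctsz without mutant replicate 3 (-0.50). Relative to the marker mean, Ctsc differed by -0.34, without overlap. The difference was -0.95 for Lgmn, -0.88 for Ctsb, -0.89 for Lamp1, and -0.97 for Grn, without overlap. On this scale, 67.7% of all genes tested were lower without overlap. The exact p was 0.1 for Ctsc and for these 4, the smallest that 3 mice against 3 allow.

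**Figure D5:**
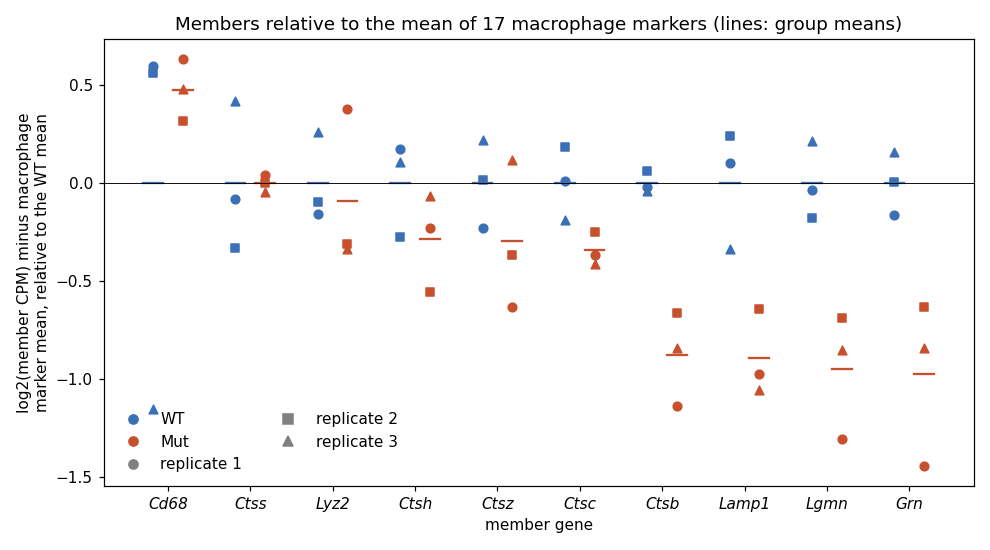
Log2 level of each member minus the mean log2 level of 17 macrophage markers in the same mouse, relative to the WT mean, in WT (blue) and mutant mice (Mut, red), with lines at the group means. Ctss and Lyz2 lie around the WT mean, whereas Ctsb, Lamp1, Lgmn, and Grn lie 0.88 to 0.97 below it.

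The other lysosomal genes were counted in 6 lists, in each of which 0 genes passed the adjusted threshold in edgeR's quasi-likelihood test. DESeq2's Wald test and edgeR's exact test each called 3 genes in these lists, Laptm5, Slc11a1, and Spi1, all of them higher. Of 6 other cathepsins tested, Ctsk, a protease of osteoclasts and some macrophages, was higher at an unadjusted p under 0.05, with a log2 difference of 0.77 (adjusted p = 0.565, edgeR), and the median of the 6 was -0.07. Without WT replicate 1, Ctsk was at 0.46, and it was at that p in 2 of the 6 omissions of 1 mouse and not with library size only. Ctsg was at 0 counts in all mice, and Ctse and Ctsw were too low to be tested. Of 3 cystatins and stefins, the natural inhibitors of cysteine cathepsins, Cstb was 4.28, 3.11, and 2.42 CPM in WT and 6.19, 4.83, and 7.73 CPM in mutant mice, with a log2 difference of 0.94 (adjusted p = 0.327, edgeR). Cstb did not overlap between the genotypes, as Lyz2 and Ctss did not, and Cst6, at 0.99 on the log2 scale (adjusted p = 0.515, edgeR), did. The third, Cst3, named after its values were seen, had means of 252.5 CPM in WT and 288.9 CPM in mutant mice, with overlap. Its log2 difference was 0.19 (adjusted p = 0.779, edgeR).

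Of 41 acid hydrolases and their activators, 4 were higher (5.77% of all genes tested) and 1 lower (2.86%) at an unadjusted p under 0.05. The median log2 difference was 0.093. With library size only, 0 were higher at that p and the median was -0.03. The higher ones were Prcp (0.77), a carboxypeptidase, Gm2a (0.63), an activator of ganglioside breakdown, Ifi30 (0.83), a thiol reductase of antigen-presenting cells, and Npc2 (0.40), a cholesterol carrier. The lower one was Psap, the precursor of the saposins and a binding partner of progranulin, with 1054, 1045, and 1584 CPM in WT and 626.8, 910.9, and 949.4 CPM in mutant mice. The log2 difference of Psap was -0.57 (adjusted p = 0.527, edgeR), and it was -0.34 without WT replicate 3. Over the 16 alternatives it ran from -0.76 to -0.17. Ifi30, Npc2, and Psap were named after their values were seen.

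Of 28 lysosome membrane proteins besides LAMP1, Laptm5 (0.85) and Slc11a1 (0.90), both typical of leukocytes, were higher, and Laptm4b (-0.35), named after its values were seen, was lower at an unadjusted p under 0.05, with a median of -0.09. Laptm4b was at that p in only 6 of the 16 alternatives. Of 19 subunits of the V-ATPase, the proton pump that acidifies lysosomes, 1 was higher at that p, Tcirg1 (0.50), and 13 had a lower fitted value, with a median of -0.07. At that p, 5.77% of all genes tested were higher. Without overlap, 3 of the 19 were higher (8.3% of all genes tested) and 4 lower (7.23%). The count of the 19 that were higher at that p was 0 with library size only and 3 with upper quartile scaling. Of 19 genes of lysosomal sorting and transcription, Spi1, which encodes the myeloid factor PU.1, was higher (1.23, adjusted p = 0.215, edgeR) and Mitf lower (-0.37), with a median of -0.07. Mitf was at -0.23 without WT replicate 2, and it was not at that p with upper quartile scaling, with library size only or with the replicate block. Among the genes named from these 6 lists, Cst6, Npc2, Laptm4b, Tcirg1, Mitf, and Psap were also at that p in only 2 to 4 of the 6 omissions of 1 mouse. Spi1 passed the adjusted threshold in some of the 16 alternatives, with adjusted p from 0.00557 to 0.763. Tfeb, the main activator of lysosomal genes and named after its values were seen, had a log2 difference of -0.04 (adjusted p = 0.972, edgeR).

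Promoters of the members were searched for motifs of a regulator of lysosomal genes, TFEB, and of a regulator of myeloid genes, PU.1. RefSeq windows of 300 bases around the start of transcription (GRCm38.p6, another build than that of the counts) were matched by symbol for 8 members, while Ctsb and Ctsh had none. The motif CACGTG, the E-box core of sites bound by TFEB and MITF, was present in 7.15% of the 32841 promoters and in 2 of the 9 windows of members. It occurred 4 times for Lamp1 and once in 1 of the windows of Lgmn, which are among the members whose genotypes overlapped. TCACGTGA, which contains CACGTG, was in 0.974% of the promoters and in 0 windows of members. GAGGAAGT, a sequence bound by PU.1, was in 3.2% of the promoters on either strand and in those of Ctss and Ctsc. The 160 bases before and 6 bases from the start site on are shown for these 3 genes, with the matches in capitals (ACTTCCTC is GAGGAAGT on the other strand).
Lamp1, chr8:13159001-13159166, plus strand: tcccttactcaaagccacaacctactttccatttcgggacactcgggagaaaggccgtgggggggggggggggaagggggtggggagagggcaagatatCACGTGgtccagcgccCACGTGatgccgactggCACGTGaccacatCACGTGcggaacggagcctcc
Ctss, chr3:95526626-95526791, plus strand: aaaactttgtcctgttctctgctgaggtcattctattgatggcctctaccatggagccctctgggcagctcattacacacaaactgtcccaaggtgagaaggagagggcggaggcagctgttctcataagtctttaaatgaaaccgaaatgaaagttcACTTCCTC
Ctsc, chr7:88277925-88278090, plus strand: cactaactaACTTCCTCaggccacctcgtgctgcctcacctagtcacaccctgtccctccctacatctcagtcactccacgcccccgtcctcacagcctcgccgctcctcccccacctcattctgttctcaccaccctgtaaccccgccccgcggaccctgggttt
A match gives no occupancy, and other members that were higher, such as Lyz2 and Cd68, had 0 matches to these motifs in their windows.

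The pattern of the members over the mice was compared with that of all other genes tested. The likeness was Pearson's r of log2 CPM with the mean over the members in 6 mice, which fall into their 2 genotypes, so that a high r mostly marks a gene that differs between them. The 5 genes most like the members were C1qc (r = 0.997), Gm15751 (0.993), Gm32219 (0.992), Cotl1 (0.990), and Slc11a1 (0.990). C1qc, a chain of complement C1q, was 13.6, 13.7, and 13.7 CPM in WT and 28.7, 31.0, and 33.7 CPM in mutant mice. Gm15751 and Gm32219 had 0 counts in all WT mice.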

How the data were processed

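Left ventricles of 3 WT and 3 Lztr1 R409C/+ mice were sequenced with 1 library per mouse (NEBNext Ultra II), and the samples were grouped by their labels. The authors deposited raw counts per gene, whole numbers without normalization. Their processing notes name Trim Galore, HISAT2, StringTie, edgeR, and GRCm39. Versions, the annotation release, the strand setting, and how counts were taken from StringTie are not given in the sources used here. The authors also deposited their own comparison (log2 fold changes, average log2 CPM, p-values, and adjusted p-values), of which only the gene names were used here.

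In R 4.3.3, edgeR 4.0.16 was used with filterByExpr, TMM, and the robust quasi-likelihood test, two-sided, on 17212 genes, with Benjamini-Hochberg adjustment over all of them and a threshold of 0.05. CPM per mouse were computed on TMM-scaled library sizes, and log2 values of single mice with 0.5 CPM added. Members set against the macrophage markers were the exception, with nothing added to the member. Single values were compared with an exact permutation test. DESeq2 1.42.0 and other settings were alternatives. The members and gene lists were chosen with earlier results of these data known. Named genes were the members, Lyz1, Lztr1, the 2 genes of each lysosomal list with the smallest p, and the 5 genes most like the members, besides those said to be named after their values were seen. Some of these are only counted. Positions and exon lengths came from GENCODE vM39 and promoters from RefSeq (GRCm38.p6). The steps were tested on simulated data. There, 45 of 97 genes with a log2 change of 1 in size were called, and 80 of 98 with a change of 2. In addition, 13 unchanged genes were called. A gene that is not called can therefore still differ by such an amount. Total counts per mouse were 66130887 to 72641124. No batch is given in the labels. The proteome was not analysed here.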

Additional observations from a re-analysis of the deposited data

How the results depend on the processing

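Alternatives were upper quartile, DESeq2, and library size scaling, DESeq2's Wald test, edgeR's exact test, no filter, 10 or more counts in each mouse, no mitochondrially encoded genes, a replicate block, and the omission of each mouse. The omission of WT replicate 3 and mutant replicate 1 together was added after the data were seen. Members called went from 0 to 2 with DESeq2's test and to 1 with the exact test. With library size only, 1 member was higher at an unadjusted p under 0.05 and 1 did not overlap. The member median (0.58) was 0.62 with upper quartile, 0.43 with library size only, 0.56 without a filter, 0.45 to 0.60 without 1 mouse, and 0.52 without both. Without WT replicate 1 or mutant replicate 3, Ctsz left the 6 members at an unadjusted p under 0.05. Higher genes called among all tested (6) were 15 with library size only, 136 with DESeq2's test, 127 with the exact test, 19 without a filter, 1 to 3 without 1 mouse, and 0 without both. Lower genes called (1) were 6, 14, and 13 in the first 3 of these, 0 with at least 10 counts in every mouse, and 1 to 2 without 1 mouse.

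Replicate numbers did not pair the mice (correlations of -0.0013, 0.022, and -0.057 for the same number). With the replicate block, 6 members stayed at an unadjusted p under 0.05, and genes called higher fell to 0. The sign of some log2 differences near 0 changed. Without 1 mouse, Lgmn was -0.16 to 0.078, Ctsb -0.073 to 0.10, Lamp1 -0.17 to 0.12, and Grn -0.21 to 0.12. Without both mice, Lgmn was 0.19 and Grn 0.20. Ctsb was -0.12 and Lztr1 -0.014 with library size only, and Lamp1 was 0.029 with upper quartile and 0.0020 with the block. The cause of these changes was not tested. The count of 110 for Cd68 in WT replicate 3 is the lowest behind any member value.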
